A study of Mus musculus with 2 samples.

Results

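The 8 genes described here, Mir137, Mir153, Mir128-1, Mir128-2, Mir129-1, Mir129-2, Mir138-1 and Mir138-2, encode microRNAs (miRNAs) known from neurons. They were chosen by their gene symbols in GENCODE M21, and all 8 were found among the 2202 miRNA gene rows of the count files. Short RNA of fragments under 30 nucleotides was sequenced from whole adrenal glands of B6CASTF1/J mice, a cross of the C57BL/6 and CAST/EiJ strains. The animals were males aged 10 days with no treatment named in the labels. The 2 libraries, numbered biological replicates 1 and 2, come from different males of a shared donor record, and whether glands were pooled is not stated. They form 1 group with no second condition, so levels are described and replicate 2 is set against replicate 1.

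A miRNA gene is transcribed as a hairpin, from which a mature strand of either arm (5p or 3p) is loaded into Argonaute and pairs with messenger RNAs through its seed, bases 2 to 8. miR-137 acts on the proliferation of neural progenitors and shapes dendrites. miR-153 targets messages of the synaptic vesicle release machinery, miR-128 dampens the excitability of neurons, miR-129-5p takes part in the downscaling of excitatory synapses, and miR-138 limits the growth of dendritic spines. In the adrenal gland, neural features belong to the medulla, whose chromaffin cells derive from the neural crest and store catecholamines in dense-core vesicles, and to the sympathetic nerve fibres that reach them. Counts of a whole gland do not show which cells they came from, and fewer cells of a type cannot be told apart from less RNA per cell.

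The mature sequences show which reads each gene can be credited with, since reads that map to several places are in no gene's count. All 8 symbols matched the RefSeq table (build GRCm38.p6), which holds 12 mature names for them, and each RefSeq hairpin was identical to the GENCODE gene. The sequences below run 5′ to 3′ with the seed in capitals. Both arms of Mir137 and Mir153 occur in 1 counted hairpin each.
miR-137-3p: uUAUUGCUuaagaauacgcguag
miR-137-5p: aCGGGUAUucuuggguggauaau
miR-153-3p: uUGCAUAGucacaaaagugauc
miR-153-5p: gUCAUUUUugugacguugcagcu

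Each copied gene has an arm that is identical in its pair. These are miR-128-3p, miR-129-5p and miR-138-5p, and each occurs in 2 counted hairpins.
miR-128-3p: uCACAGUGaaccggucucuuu
miR-129-5p: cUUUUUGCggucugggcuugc
miR-138-5p: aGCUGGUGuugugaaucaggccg

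For miR-128 and miR-138 the other arm differs between copies, and each version occurs in 1 hairpin. The other arm of Mir129-2, miR-129-2-3p, also occurs in 1 hairpin. The 5p arms of miR-128 share the seed GGGGCCG, while the 3p arms of miR-138 have the seeds GGCUACU and CUAUUUC. The RefSeq table holds no 3p arm for Mir129-1, so the mature 3p arms of miR-129 were not compared. The hairpin of Mir129-1 does hold the bases AGCCCUU, the seed of miR-129-2-3p. Apart from the miR-128 5p pair, no seed printed here is found in another mature miRNA of the table. The table lacks arms of other genes too, among them Mir383, so this does not establish that a seed is unique.
miR-128-1-5p: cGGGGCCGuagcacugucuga
miR-128-2-5p: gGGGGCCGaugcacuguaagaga
miR-129-2-3p: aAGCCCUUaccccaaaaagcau
miR-138-1-3p: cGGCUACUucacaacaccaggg
miR-138-2-3p: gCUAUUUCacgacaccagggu

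The hairpins of each pair are shown next, with capitals for every run of at least 18 bases that the other copy also holds. The longest shared run was 23 bases for miR-128, 26 for miR-129 and 24 for miR-138.
Mir128-1: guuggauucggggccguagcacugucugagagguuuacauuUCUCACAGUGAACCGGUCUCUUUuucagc
Mir128-2: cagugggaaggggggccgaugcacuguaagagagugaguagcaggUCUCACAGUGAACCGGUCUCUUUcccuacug
Mir129-1: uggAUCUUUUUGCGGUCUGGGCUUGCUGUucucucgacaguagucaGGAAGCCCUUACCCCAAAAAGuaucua
Mir129-2: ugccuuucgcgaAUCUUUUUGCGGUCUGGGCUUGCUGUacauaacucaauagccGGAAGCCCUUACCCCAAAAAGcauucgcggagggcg
Mir138-1: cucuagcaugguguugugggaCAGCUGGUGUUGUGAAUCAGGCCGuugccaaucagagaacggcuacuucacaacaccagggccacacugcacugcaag
Mir138-2: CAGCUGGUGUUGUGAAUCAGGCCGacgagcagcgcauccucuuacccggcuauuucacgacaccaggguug

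The whole of the identical arm lies in capitals in all 6 hairpins. In the miR-129 pair the 3′ side is shared as well: 19 of the 22 bases of miR-129-2-3p lie in a shared run. No base of the differing arms of miR-128 and miR-138 does. In contrast, Mir137 shared no run longer than 11 bases with any other counted hairpin on the same strand, and Mir153 none longer than 10. Of the 444 genes that reached 10 counts in the sum of the libraries, 101 (22.7%) share a same-strand run of 18 bases with another counted hairpin. A read that holds only the shared arm matches both copies, so the counts of the 6 copied genes are not those of the whole mature miRNA. Counts per arm were not analysed here.

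**Figure D1:**
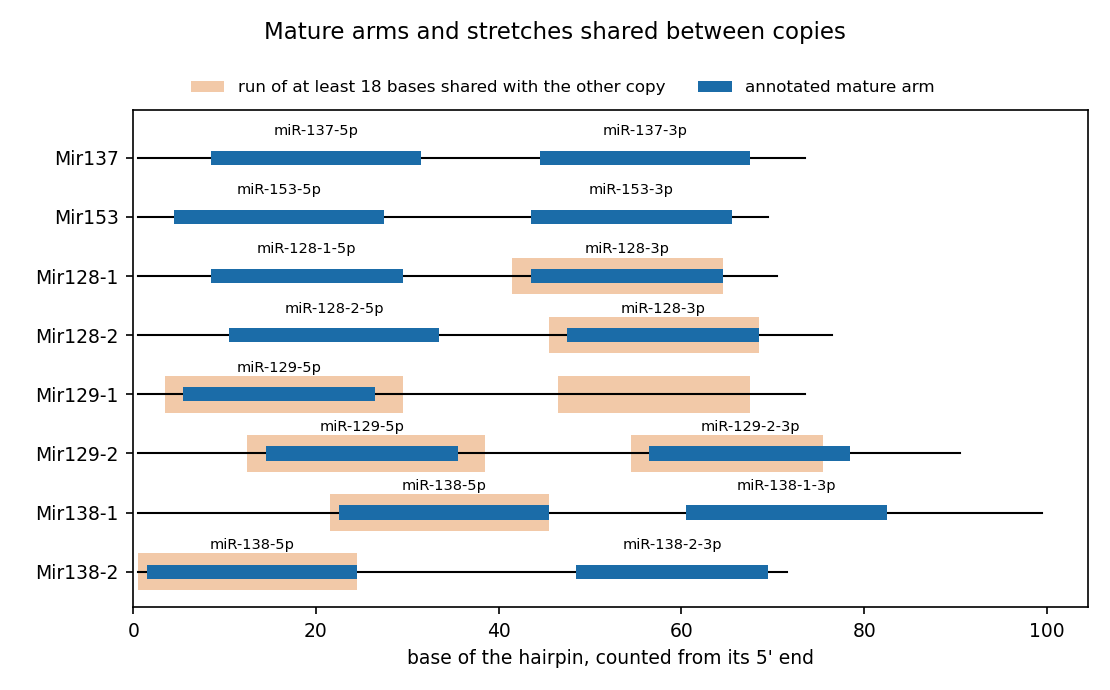
Mature arms (blue) and runs of at least 18 bases shared with the other copy (shaded) along the hairpins of the 8 genes, by base from the 5′ end. The arms of Mir137 and Mir153 have no shaded run, each copied gene has 1 fully shaded arm, and Mir129-2 also has 19 of 22 bases of its 3p arm shaded.

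The 8 genes lie at 8 separate places of the mm10 build. Mir137 (ENSMUSG00000065569.2) is on the plus strand of chromosome 3 from 118433857 to 118433929, in an exon of the noncoding gene Gm26871. Mir153 (ENSMUSG00000065538.1) is on the plus strand of chromosome 12 from 117250817 to 117250885, in an intron of Ptprn2, which encodes a phosphatase-like protein of dense-core secretory vesicles. Both miR-128 genes are intronic. Mir128-1 (ENSMUSG00000065520.2), at 128202361 to 128202430 of chromosome 1, is in R3hdm1, and Mir128-2 (ENSMUSG00000065441.2) on the minus strand of chromosome 9 from 112118636 to 112118711 in Arpp21, which encodes a phosphoprotein regulated by cyclic AMP.

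Mir129-1 (ENSMUSG00000065469.1), at 29022619 to 29022691 of chromosome 6, is in an exon of the noncoding gene Gm3294. Mir129-2 (ENSMUSG00000065511.1) lies on the minus strand of chromosome 2 from 94241364 to 94241453, in an intron of the noncoding gene Mir670hg. It is the only member that overlaps another miRNA gene, Mir129b, which is annotated on the other strand from 94241378 to 94241442. Mir138-1 (ENSMUSG00000065414.1), at 122682876 to 122682974 of chromosome 9, is in an exon of the pseudogene Gm47135, and Mir138-2 (ENSMUSG00000065512.3) on chromosome 8 from 94324311 to 94324381 in an exon of the noncoding gene C78859.

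Replicate 1 held 2843734 reads assigned to miRNA genes on their own strand and replicate 2 held 3080062. Levels are given as CPM, own-strand counts scaled to these totals. The limit that a count of 0 allows (3 counts) was 1.05 CPM for the first library and 0.974 CPM for the second. Reads mapped to several places made up 27.5% of all reads of replicate 1 and 25.9% of replicate 2. Some miRNAs and summed lists of other organs and cells differed between the libraries, and the sums of other lists were near level. The hepatocyte miRNA Mir122 had 29424 CPM in replicate 1 and 97850 CPM in replicate 2, the summed striated muscle list 929 and 3337 CPM, of which Mir206 alone was 919 and 3305 CPM, and the endothelial Mir126a 84263 and 45250 CPM. The summed lists for blood (1546 and 1616 CPM), kidney and other epithelia (1573 and 1632 CPM), smooth muscle (38591 and 31956 CPM) and pancreas (2.46 and 2.92 CPM) differed less. Near-level sums hid differences within a list. In blood Mir150 had 292 and 786 CPM and Mir451a 567 and 234 CPM. In kidney and other epithelia Mir200b had 39.4 and 161 CPM and Mir203 1139 and 824 CPM. By the exact binomial test described below, 7 of that list's 10 genes were higher and 1 lower in replicate 2. Of all tested genes 28.6% were higher and 30.4% lower. The part of these miRNAs in the differences below was not tested.

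All 8 genes were detected at 1 CPM or more in both libraries, as were 441 of all 2202 genes. Together they had 1271 CPM in replicate 1 and 921 CPM in replicate 2, which is 0.110% ± 0.025 (SD, n = 2) of the assigned counts. Mir137 alone held 60.2% of the counts of the 8 genes in replicate 1 and 49.6% in replicate 2. The order of the 8 genes given next was the same in CPM and in CPM per 100 bases of gene length. Order and shares hold for the assigned reads only: both arms of Mir137 and Mir153 occur in 1 counted hairpin, while reads that hold only the shared arm of a copied gene match both copies.

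Mir137 had the most assigned reads, with 2175 counts (765 CPM) in replicate 1 and 1407 counts (457 CPM) in replicate 2. Its mean of 611 ± 218 CPM (SD, n = 2) placed it at rank 114 of the 2202 genes. Replicate 1 was the higher library, and in both libraries Mir137 lay above every other member.

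Mir138-1 followed with 524 counts (184 CPM) in replicate 1 and 717 counts (233 CPM) in replicate 2, a mean of 209 ± 34 CPM (SD, n = 2). Its copy Mir138-2 had 194 counts (68.2 CPM) and 273 counts (88.6 CPM), a mean of 78.4 ± 14.4 CPM. These are the only members with the higher level in replicate 2. The libraries' exact Poisson 95% intervals were apart for Mir138-1, from 169 to 201 CPM and from 216 to 250 CPM. For Mir138-2 they met at their ends, from 59.0 to 78.5 CPM and from 78.4 to 99.8 CPM.

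Mir128-1 had 314 counts (110 CPM) in replicate 1 and 248 counts (80.5 CPM) in replicate 2, with a mean of 95.5 ± 21.1 CPM (SD, n = 2). Mir128-2 was much lower, at 43 counts (15.1 CPM) and 39 counts (12.7 CPM), a mean of 13.9 ± 1.7 CPM. The 2 genes did not overlap in level, and Mir128-2 differed least between the libraries of all members.

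Mir129-2 had 202 counts (71.0 CPM) in replicate 1 and 118 counts (38.3 CPM) in replicate 2, with a mean of 54.7 ± 23.1 CPM (SD, n = 2). Mir129-1 had 45 counts (15.8 CPM) and 26 counts (8.44 CPM), a mean of 12.1 ± 5.2 CPM and the lowest of the 8. Here the second copy was the higher one, the reverse of miR-128 and miR-138, and both copies were higher in replicate 1.

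Mir153 differed most, with 117 counts (41.1 CPM) in replicate 1 and 8 counts (2.60 CPM) in replicate 2. Its mean of 21.9 ± 27.3 CPM (SD, n = 2) has an SD above the mean and describes neither library. The exact Poisson 95% intervals, for counting error alone, ran from 34.0 to 49.3 CPM and from 1.12 to 5.12 CPM. In replicate 1 it ranked 248 among all genes and in replicate 2 it ranked 399.

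By mean the order ran Mir137, Mir138-1, Mir128-1, Mir138-2, Mir129-2, Mir153, Mir128-2, Mir129-1. Only the first steps were clear of the libraries' spread: Mir137 above Mir138-1 and Mir138-1 above Mir128-1 did not overlap. From Mir128-1 downward each gene overlapped its neighbour in the order. Of these 5 neighbouring pairs only Mir129-2 and Mir153 kept the same order in both libraries.

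**Figure D2:**
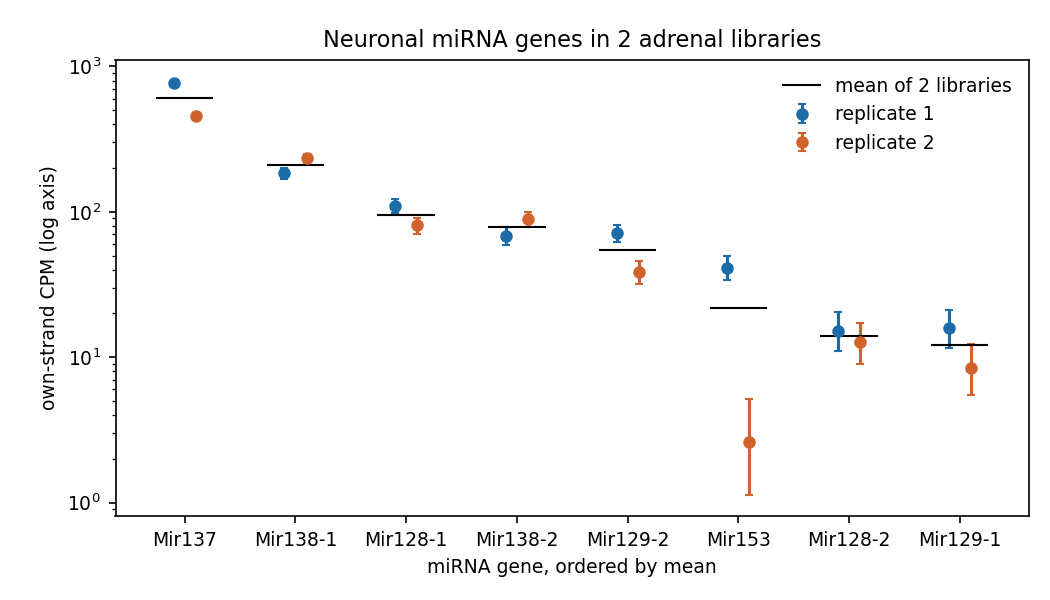
Own-strand CPM of each gene in replicate 1 (blue) and replicate 2 (orange) on a log axis, with exact Poisson 95% intervals for counting error and the mean of 2 libraries as a line. Mir137 is highest at 765 and 457 CPM, the miR-138 genes alone are higher in replicate 2, and Mir153 falls from 41.1 to 2.60 CPM.

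Between the libraries, 6 of the 8 genes had a lower level in replicate 2 and 2 a higher one. By family, miR-137, miR-153, miR-128 and miR-129 were lower in replicate 2 and miR-138 was higher. Copies of a pair went the same way, so the 8 genes are not separate observations. By an exact two-sided binomial test against counting error, with Benjamini-Hochberg adjustment over the 444 genes with at least 10 counts, 5 members were lower in replicate 2, 2 were higher and 1 was not called. The background is high: 59.0% of all tested genes were called, 30.4% lower and 28.6% higher in replicate 2. The test compares these 2 libraries and no conditions. The median log2 ratio of the 8 genes (replicate 2 over replicate 1, 0.5 counts added) was -0.60, against 0.07 over all tested genes. Their median absolute log2 ratio of 0.60 was close to that of all tested genes, 0.56.

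Mir153 had a log2 ratio of -3.90 (adjusted p = 1.5e-27, exact binomial test), the lowest of all 444 tested genes. It was also the only member called by edgeR's exact negative binomial test, which allows for a spread between libraries estimated from the same 2 libraries (adjusted p = 0.0162). With 1 library on each side, that call is no independent evidence of a difference between animals. That test called 2 of 444 genes, 0.450%, with 24 genes at an unadjusted p under 0.05, and among the members only Mir153 was below that level. With 8 counts in replicate 2, its size of change is loosely fixed.

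Mir137 had a log2 ratio of -0.74 (adjusted p = 9.5e-52, exact binomial test), a level 1.67 times higher in replicate 1. Of the 444 tested genes, 156 had an absolute ratio at least as large, itself counted. In the negative binomial test its adjusted p was 1.00. The miR-129 genes moved by almost the same amount, -0.89 for Mir129-2 (adjusted p = 1.8e-07, exact binomial test) and -0.90 for Mir129-1 (adjusted p = 0.0216, exact binomial test). Mir128-1 had a ratio of -0.45 (adjusted p = 4.4e-04, exact binomial test). Mir128-2, at -0.25, did not pass (adjusted p = 0.536, exact binomial test), and its depth of 82 counts in all limits what could be detected.

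The miR-138 genes went the other way, with 0.34 for Mir138-1 (adjusted p = 1.1e-04, exact binomial test) and 0.38 for Mir138-2 (adjusted p = 0.0102, exact binomial test). In the plot of ratio against level, ratios as large as those of Mir138-1 in either direction were found for 303 of the 444 tested genes, itself counted.

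**Figure D3:**
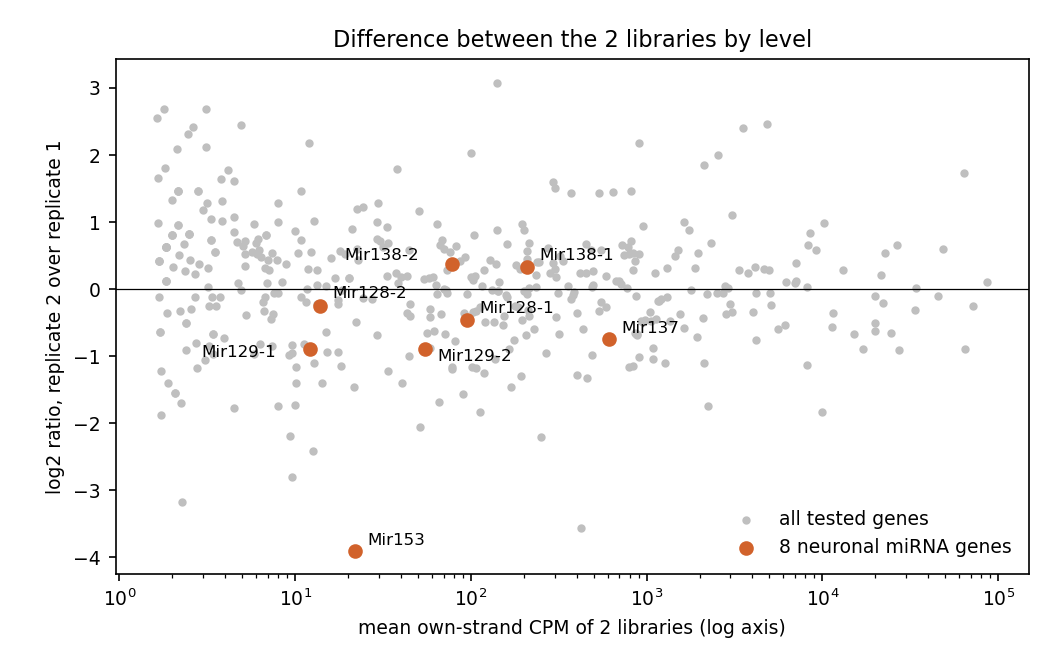
Log2 ratio of replicate 2 over replicate 1 against mean own-strand CPM (log axis) for all 444 tested genes (grey) and the 8 neuronal miRNA genes (orange). Mir153 lies lowest of all at -3.90, while the other members lie between -0.90 and 0.38 among the grey points.

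The share of each copy in its pair was close in both libraries, while the pairs differed from each other in direction between the libraries. Mir128-1 held 88.0% of the 357 counts of the miR-128 pair in replicate 1 (95% Clopper-Pearson interval 84.1 to 91.1) and 86.4% of 287 in replicate 2 (81.9 to 90.2). Mir129-1 held 18.2% of 247 counts (13.6 to 23.6) and 18.1% of 144 (12.1 to 25.3). Mir138-1 held 73.0% of 718 counts (69.6 to 76.2) and 72.4% of 990 (69.5 to 75.2). As folds, Mir128-1 was 7.30 and 6.36 times above its copy, Mir129-2 was 4.49 and 4.54 times above its copy, and Mir138-1 was 2.70 and 2.63 times above its copy. These shares and folds compare the reads assigned to each copy, which may come from different arms or read ends, and not the output of the copies.

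Whether the proportion differed between the libraries was tested by Fisher's exact test over 6 pairs, these 3 and the 3 other pairs of the marker lists in which each copy had at least 10 counts. No pair of the members passed. Their odds ratios were 0.87 for miR-128 (95% interval 0.53 to 1.43), 0.99 for miR-129 (0.56 to 1.74) and 0.97 for miR-138 (0.78 to 1.21), each with an adjusted p of 1.00. The intervals for miR-128 and miR-129 leave room for larger differences than that for miR-138. Among the other pairs, the share of Mir218-1 in the miR-218 pair was 6.69% and 17.3% (odds ratio 2.92, adjusted p = 0.00226, Fisher's exact test), and that of Mir7-1 in its pair 78.2% and 83.8% (odds ratio 1.44, adjusted p = 0.00315, Fisher's exact test). Mir194-1 and Mir194-2 did not pass. This comparison was chosen after the counts had been seen. Its units are single reads with 1 library on each side, so its p-values and intervals take in counting error alone.

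**Figure D4:**
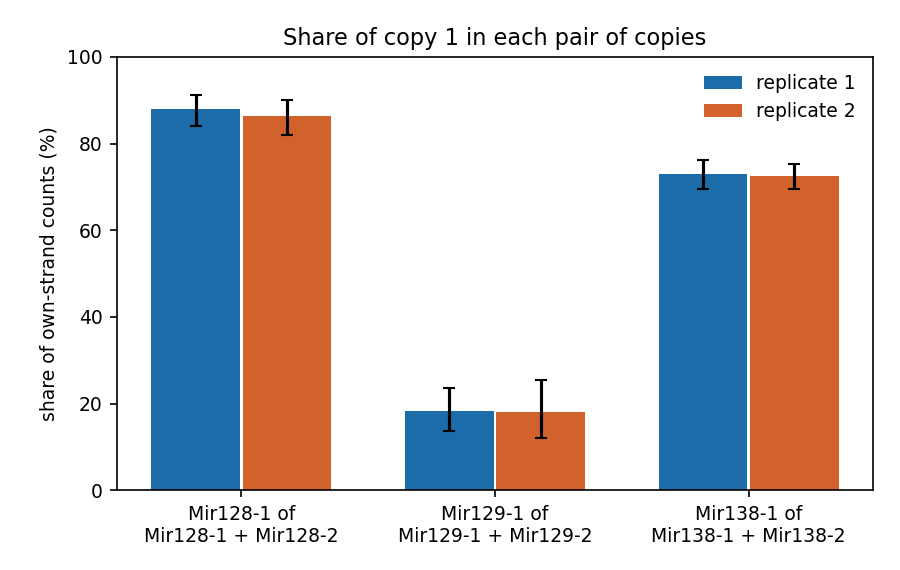
Share of the first copy in the own-strand counts of each pair, in percent, for replicate 1 (blue) and replicate 2 (orange), with exact 95% binomial intervals. The bars of each pair lie within each other's interval, near 87% for Mir128-1, 18% for Mir129-1 and 73% for Mir138-1.

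Strand decided whether Mir129-2 was seen. Without strand its 202 and 118 own-strand counts became 0 and 1, and Mir129b had 0 in both libraries. On its own strand Mir129b had 1 and 2 counts, and on the strand of Mir129-2 it had 202 and 117. For the other 7 genes the counts with and without strand were equal in both libraries, and no read was found on the opposite strand. Some comparison genes also depended on strand. Without strand Mir126a had 16 and 8 counts, against 239620 and 139372 on its own strand. Mir338 and Mir451a had 0 counts in both libraries without strand, while those of Mir375 were equal with and without it.

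Other miRNAs known from neurons were read from a list of 16, of which 8 were detected in both libraries. Mir132, which responds to neuronal activity and to hormones, led with 647 CPM in replicate 1 and 933 CPM in replicate 2, above Mir137 only in replicate 2. Mir218-2, a motor neuron miRNA, had 108 and 48.1 CPM, Mir212 59.1 and 29.5 CPM, and Mir383 13.7 and 31.5 CPM. Of the 8 tested members of this list 4 were lower and 2 higher in replicate 2 by the exact binomial test, beside 30.4% lower and 28.6% higher of all tested genes, and the median log2 ratio was -0.60. The list's sum, led by Mir132, was 885 CPM in replicate 1 and 1076 CPM in replicate 2. The brain miRNA genes of the miR-9 and miR-124 families had between 0 and 1 counts in each library. Both arms of Mir9-1, Mir9-2 and Mir9-3 occur in several hairpins, so a read of a mature strand alone matches several genes, and these counts do not show absence. The arms of the miR-124 genes were not compared. Of the 9 genes in this list with an arm in 1 hairpin only, 7 had at least 10 counts over both libraries. Among all 2202 genes 444 did. The exceptions in the list were Mir135a-1 and Mir135a-2, with between 0 and 1 counts in each library. Mir383, with no arm in the RefSeq table, had 39 and 97 counts. The part of shared arms in the low counts was not tested.

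In the neuroendocrine list Mir375 had 34145 and 34383 CPM and did not pass the test (adjusted p = 0.175, exact binomial test). The list's sum, led by Mir375, was 39914 CPM in replicate 1 and 37795 CPM in replicate 2. Mir7b had 5272 and 3120 CPM. With Mir7-1 and Mir7-2 it was lower in replicate 2 by the exact binomial test, beside 30.4% lower of all tested genes. That is the direction of Mir137, Mir153, Mir128-1 and the miR-129 genes, while the miR-138 genes went the other way. The glial Mir338 was lower too, at 525 and 349 CPM, while Mir219a-1 had 11.6 and 11.7 CPM. The part of cell make-up in these differences was not tested. The 4 neuroendocrine miRNA genes and 8 of the 16 other neuron miRNA genes were detected in both libraries. No list separates medulla from nerve or defines the cortex, so the cells behind the 8 genes were not identified.

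By distance of log2(CPM + 1) over the 2 libraries, the genes nearest to Mir137 were Mir18 and Mir300, at distances of 0.33 and 0.36. Nearest to Mir138-1 were Mir700 and Mir380, to Mir138-2 Mir200c and Mir1249, to Mir128-1 Mir377 and Mir3068, and to Mir128-2 Mir6240 and n-TSaga9. Mir129-2 was nearest to Mir293 and Mir199b, and Mir129-1 to Mir3070a and Gm23935. Mir153 had no near neighbour: Mir3074-1, with 61 and 12 counts, lay at a distance of 1.01, and Mir592, with 48 and 7 counts, at 1.24. Without strand Mir3074-1 had 0 counts in both libraries.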

How the data were processed

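Deposited values are raw read counts for each gene annotated as a miRNA, in 2 libraries, on mm10 with GENCODE M21 per the labels and the files' own description text. The sources used here do not give the aligner or the counter. The roles of the 3 count columns (without strand, own strand, opposite strand) were read from their values. Own-strand counts were used, and the 4 special rows (unmapped, multiply mapped, outside genes, ambiguous) stayed out of totals. The members and gene lists were chosen with earlier results of these data known. Named genes were the 8 members, the 2 nearest genes to each, the gene overlapping a member on the other strand, Mir122 and the leading members of the lists.

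Replicate 2 was tested against replicate 1 for every gene with at least 10 counts in all, by a two-sided exact binomial test, adjusted by Benjamini and Hochberg's method, with calls at 0.05. These p-values, the intervals and the 3-count limit take in counting error alone, and molecular identifiers are not recorded. Alternatives were counts without strand, edgeR's TMM and DESeq2's size factors, Mir122 left out, other count minimums, 5 counts added in place of 0.5, each library alone, levels per 100 bases, and edgeR's exact negative binomial test. The binomial test was also run on simulated counts with counting error only, which cannot show how it behaves under a spread between libraries. Fisher's exact test of the copies was added after the counts were seen, and it too takes in counting error alone. Sequences are from RefSeq (GRCm38.p6) and were compared with GENCODE M21 transcripts, not with the genome. Versions were edgeR 4.0.16 and DESeq2 1.42.0 under R 4.3.3, and scipy 1.17.1 under Python 3.11.15.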

Additional observations from a re-analysis of the deposited data

Results flagged for a closer look

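Reads that map to several places are in no gene's count and enter no comparison of the levels. They made up 27.5% of the reads of replicate 1 and 25.9% of replicate 2. A read that holds only miR-128-3p, miR-129-5p or miR-138-5p matches 2 counted hairpins. How many of the multiply mapped reads hold these sequences was not analysed here.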

How the results depend on the processing

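Of 7 members called between the libraries, edgeR's exact negative binomial test called 1, Mir153 (2 of 444 genes against 262); counts without strand called 6 of 7 tested (57.1% of all tested genes) and the minimum of 100 counts 6 of 6 (80.4%). With no filter 7 of 8 were called (32.6%), and 7 of 8 with TMM, DESeq2 factors and Mir122 left out (56.9% to 59.0%). Without strand the mean share of Mir129-1 in its pair was 98.1% against 18.1%, because Mir129-2 then has 0 and 1 counts. Leaving Mir122 out of the totals raised every log2 ratio by 0.105, and TMM and DESeq2 factors lowered them by less. None of 61 alternatives of the log2 ratios changed direction; 6 lost their call, all in the negative binomial test. Of 32 alternatives of the levels, 27 moved by less than the spread between libraries, which single libraries do by construction, and the 5 others were all without strand. No paired analysis was possible because there is 1 group.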

Other observations

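Mir670 lies in the same host gene as Mir129-2, Mir670hg. It had 21 counts in replicate 1 and 18 in replicate 2 on its own strand, and its log2 ratio of -0.33 did not pass (adjusted p = 0.62, exact binomial test), beside -0.89 for Mir129-2. The difference between these ratios was not tested, and Mir670 was chosen after its values were seen.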
